A study of Homo sapiens with 4 samples.

Results

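The 9 circular RNAs (circRNAs) followed here are the published circRNAs of the genes CDYL, ZKSCAN1, HIPK3, SMARCA5, FBXW7, PVT1, ZNF609, MTO1 and ITCH. They were picked by circBase identifier (circBase is a public circRNA database) for their place in the literature on liver and other cancers, and not for their values. All 9 had a row among the 11666 circRNAs of the table. No gene names stand beside the identifiers in the table, so the host genes are those of the published names of these identifiers. A circRNA forms when the end of an exon is spliced back onto the start of the same or an earlier exon, which leaves a loop without free ends. Exonucleases such as RNase R degrade such loops poorly, and many outlast the linear transcripts of their host genes. In liver cancer some have been described as holders of microRNAs, as partners of RNA-binding proteins or as templates for short proteins.

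The table holds read counts for circRNAs in 4 libraries of HepG2, a human hepatoma line in long use, whose genotype is labelled WT. Of these, 2 came from cells kept glucose-free for 24 h and 2 from cells labelled Normal. Both groups were treated alike at the bench per the labels' protocols, with ribosomal RNA removed and linear RNA digested by RNase R. One cell line in culture is the only model here, and no label tells whether the libraries of a group are separate cultures. The p-values therefore reflect the spread of these libraries, which may be technical.

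Glucose-free replicates 1 and 2 held 102420 and 58776 circRNA reads, and normal replicates 1 and 2 held 133083 and 166071. Levels are given as CPM, the reads of a circRNA per 1000000 circRNA reads of its library. They carry no length term, and they cannot tell fewer molecules per cell from more reads of other circRNAs. The closest libraries did not belong to the same group. Between glucose-free replicate 2 and normal replicate 1, a chi-square test of counts found no difference beyond sampling noise (p = 0.997), over 1644 circRNAs that averaged 100 CPM or more and were read in every library. Its chi-square per degree of freedom was 0.905, and that of the other 5 library pairs was 2.27 to 5.76. The set leaves out any circRNA listed at 0 in a library. Of 1049 circRNAs with at least 10 reads expected in glucose-free replicate 2 from the other libraries, 62 were listed at 0 there. One is circZNF609, with 72 reads in normal replicate 1. The test therefore does not cover such differences between the closest libraries. Whether a label is wrong or a library was deposited under 2 names was not tested. Each group mean and fold takes the labels as given, and results are given with and without these libraries. The table holds no linear transcripts, so the liver identity of the cells was not checked.

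What identifies a circRNA in sequencing reads is the back-splice junction, where the end of the loop meets its start. The table gives neither sequences nor exons. The junctions below follow the exon composition described for these circRNAs in the literature, read from GENCODE 29 transcripts (GRCh38), whereas the submitters' processing notes name hg19, and they were not matched to reads. They are shown in full for CDYL, SMARCA5 and MTO1, where the bases shown on both sides lie in coding sequence. The 20 bases before the junction are in lower case, and the 20 after it are in capitals.
circCDYL: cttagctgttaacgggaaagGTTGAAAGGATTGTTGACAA
circSMARCA5: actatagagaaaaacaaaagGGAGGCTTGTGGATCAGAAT
circMTO1: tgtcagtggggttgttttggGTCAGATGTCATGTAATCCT

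The circCDYL loop is exon 4 of a CDYL transcript, 667 bases at chr6:4891713-4892379 on the plus strand. The circSMARCA5 loop joins exons 15 and 16 of SMARCA5, 269 bases of RNA within chr4:143543509-143543972 on the plus strand. The circMTO1 loop joins exons 2 and 3 of MTO1, 318 bases within chr6:73466209-73466606 on the plus strand. All 3 loops lie within the coding sequence of these transcripts. For 3 further members the loop starts in a 5′ untranslated region, so only the last 20 bases before the junction are shown, with the 10 nearest to it in capitals.
circZKSCAN1: ccgcctcttaCAGTCACGAG
circHIPK3: ctacaatctcGGTACTACAG
circFBXW7: tctatacaaaAACAACAAAA

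The circZKSCAN1 loop joins exons 2 and 3 of ZKSCAN1, 668 bases within chr7:100023419-100024307 on the plus strand. The circHIPK3 loop is exon 2 of HIPK3 alone, 1099 bases at chr11:33286413-33287511 on the plus strand. The circFBXW7 loop joins exons 3 and 4 of FBXW7, 620 bases within chr4:152411303-152412529 on the minus strand.

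In both groups circCDYL, circZKSCAN1 and circHIPK3 stood among the most abundant circRNAs of these cells, whereas circMTO1 and circITCH had 36 and 14 reads in all. Together the 9 took 2.64% of the circRNA reads in glucose-free replicate 1 (95% Clopper-Pearson interval 2.55% to 2.74%) and 2.47% in glucose-free replicate 2 (2.34% to 2.60%), against 2.30% in normal replicate 1 (2.22% to 2.38%) and 2.10% in normal replicate 2 (2.03% to 2.17%). The groups did not overlap, but the intervals of glucose-free replicate 2 and normal replicate 1 did. These intervals cover counting error only. The mean share was 2.56% ± 0.124 in glucose-free and 2.20% ± 0.141 in normal libraries (SD, n = 2 each), a difference of 0.357 percentage points. An exact 2-sided permutation test gave p = 0.333, the smallest p that 2 libraries against 2 allow. Without circCDYL the difference was 0.105 percentage points, and over circRNAs read in all 4 libraries it was 0.192. Glucose-free replicates 1 and 2 listed 7231 and 6077 circRNAs, and normal replicates 1 and 2 listed 9398 and 9618. Whether the shorter lists raised the members' share was not tested. The 3 most abundant members held 79.7% and 81.2% of the members' reads in glucose-free replicates 1 and 2 and 80.3% and 83.3% in normal replicates 1 and 2.

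**Figure D1:**
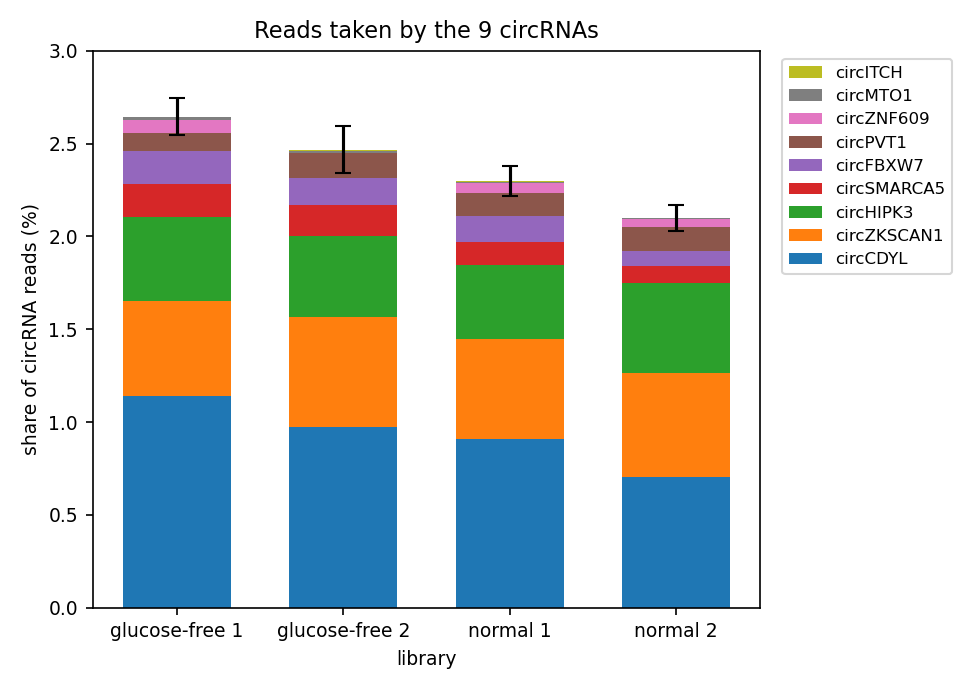
Share of circRNA reads (percent, vertical axis) taken by the 9 circRNAs in each library, stacked by circRNA, with 95% Clopper-Pearson intervals of the sum as error bars. The highest sum is 2.64%, in glucose-free replicate 1, the lowest is 2.10%, in normal replicate 2, and circCDYL is the widest band in each library.

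The order of the levels had fixed and loose parts. In each of the 4 libraries circCDYL was above circZKSCAN1, circZKSCAN1 above circHIPK3, and circHIPK3 above circSMARCA5, and the ranges of these neighbours over the libraries did not overlap. Next came circSMARCA5, circFBXW7 and circPVT1, whose ranges overlapped. circSMARCA5 was above circFBXW7 in 2 of 4 libraries and circFBXW7 above circPVT1 in 3 of 4. circPVT1 was above circZNF609 in all 4. At the low end the ranges of circZNF609, circMTO1 and circITCH overlapped from neighbour to neighbour. circZNF609, listed at 0 in 1 library, was above circMTO1 in 3 of 4, and circMTO1 was above circITCH in all 4.

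**Figure D2:**
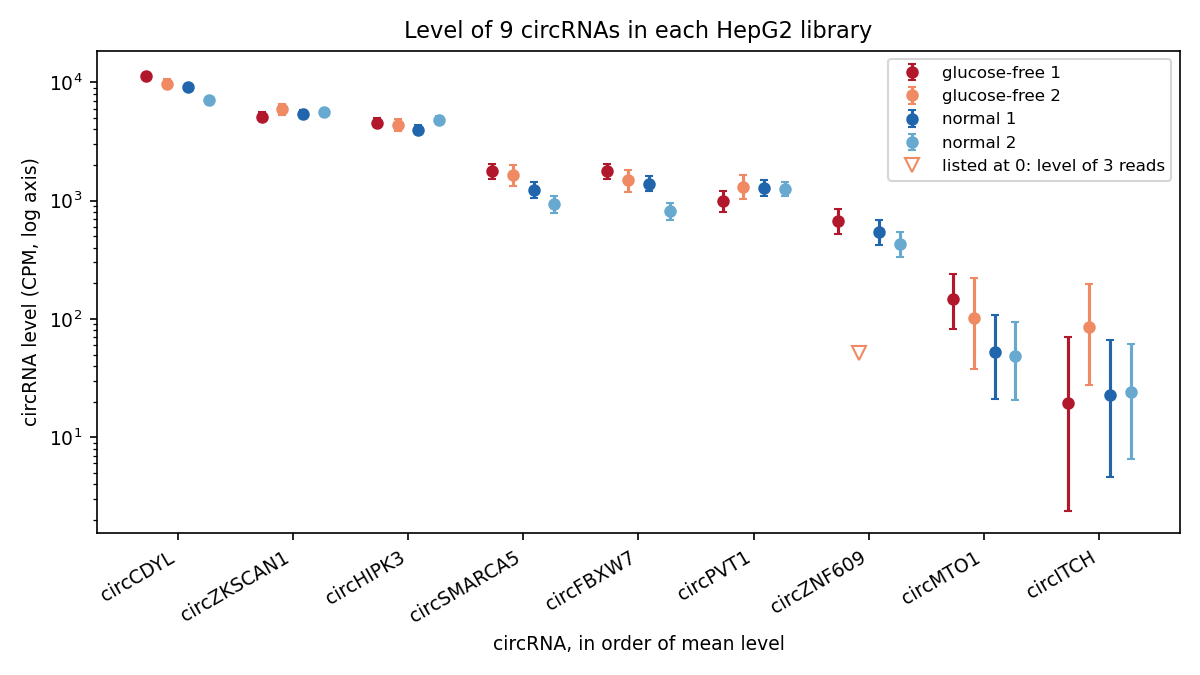
Level of each circRNA (CPM, log axis) in the 4 libraries, in order of mean level, with exact 95% Poisson intervals for counting error. Both glucose-free libraries lie above both normal libraries for circCDYL, circSMARCA5, circFBXW7 and circMTO1, and the open triangle marks circZNF609, listed at 0 in glucose-free replicate 2, at the level of 3 reads.

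The comparison asks which of the 9 differ in level between glucose-free and normal cells. None passed edgeR's quasi-likelihood test at an adjusted p of 0.05, with p-values adjusted over all 2803 circRNAs tested, of which 0 were called (0%). Of the 9, 8 passed the filter on low counts, which asks for about 84.9 CPM in 2 libraries. circITCH did not pass, and circMTO1 passed through its glucose-free libraries alone. No member was under an unadjusted p of 0.05 in this test either, against 65 of the 2803 (2.32%). DESeq2 called 0 of 9 members, with 0 at an unadjusted p under 0.05. limma on log2(CPM + 1) called 0 of 8 members and 16 of the 2803. At an unadjusted p under 0.05 it had 1 member, circMTO1, and 82 of the 2803. Over all alternative fits, an unadjusted p under 0.05 was reached by circSMARCA5 in 7 of 22, by circMTO1 in 5 of 21, by circFBXW7 in 3 of 22, by circCDYL in 2 of 22 and by circZNF609 in 1 of 15, and by no other member. Among circRNAs with reads in all 4 libraries, 2 of 7 members were under it, against 187 of the 2131 circRNAs tested there. With the replicate block it was 3 of 7, against 145 of 2131. With unlike-numbered libraries paired it was 2 of 7, against 179 of 2131. These shares over all circRNAs were larger than the 2.32% of the first test. With robust dispersion circSMARCA5 was among 72 of 2803 under it. With at least 10 reads in 2 libraries it was among 70 of 2801. Some of the tallied fits had 1 library in a group. The alternative fits reuse the same 4 libraries, so these counts are not separate support.

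Glucose-free libraries were both above normal libraries, without overlap, for 4 of the 9 members, and for none were both below. Among all circRNAs tested the groups did not overlap for 23.2% with glucose-free higher and for 12.9% with glucose-free lower. The 4 were circCDYL, circSMARCA5, circFBXW7 and circMTO1. For the other members, the 2 groups overlapped. circMTO1 passed the filter through its glucose-free libraries alone, which fixed its place among the 4. The 9 include circITCH, which was not tested, whereas the percentages are over circRNAs tested.

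Among circRNAs reported to favour growth of liver or other cancer cells, circCDYL (hsa_circ_0008285) was the most abundant. Its host gene encodes a chromodomain protein of repressive chromatin complexes. Its reads numbered 1166 and 572 in glucose-free replicates 1 and 2, or 11384 and 9732 CPM, against 1207 and 1166 in normal replicates 1 and 2, or 9070 and 7021 CPM. It ranked 3 and 2 among the circRNAs of the glucose-free libraries and 2 and 6 in the normal libraries. Normal replicate 2 was the low library. The mean of 10558 ± 1169 CPM in glucose-free cells was 1.31 times that of 8045 ± 1448 CPM in normal cells (SD, n = 2 each). The fitted fold was 1.23 with a 95% interval of 0.843 to 1.80 (edgeR adjusted p = 0.999), which spans 1. Between the closest libraries, glucose-free replicate 2 stood at 1.07 times normal replicate 1, and between the other 2 libraries the ratio was 1.62.

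circHIPK3 (hsa_circ_0000284) comes from a gene for a homeodomain-interacting protein kinase and is known as a circRNA that binds several microRNAs. Its reads numbered 467 and 257 in glucose-free replicates 1 and 2, or 4560 and 4373 CPM, against 529 and 802 in normal replicates 1 and 2, or 3975 and 4829 CPM. Both glucose-free libraries lay between the normal libraries. Its rank was 14 and 13 in the glucose-free libraries and 15 and 11 in the normal libraries. The log2 fold change was -0.08 (standard error 0.19; edgeR adjusted p = 0.999), and the interval of the fold ran from 0.653 to 1.36. The ratio of mean CPM was 1.01, and the fitted value was below 0 in 17 of 22 alternative fits and above 0 in 5.

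circPVT1 (hsa_circ_0001821) comes from PVT1, a long non-coding RNA gene. Its reads numbered 101 and 77 in glucose-free replicates 1 and 2, or 986 and 1310 CPM, against 171 and 210 in normal replicates 1 and 2, or 1285 and 1265 CPM. The normal libraries differed by less than the glucose-free libraries, which lay on both sides of them. The log2 fold change was -0.26 (standard error 0.20; edgeR adjusted p = 0.999). Its ranks were 111.5 and 77.5 in the glucose-free libraries and 78 and 74.5 in the normal libraries, where ties share their mean rank.

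circZNF609 (hsa_circ_0000615), from a zinc finger gene, has been described as translated and as needed for myoblast growth. Glucose-free replicate 1 held 69 reads of it, or 674 CPM, and glucose-free replicate 2 listed it at 0. In normal replicates 1 and 2 it had 72 and 71 reads, or 541 and 428 CPM. Its rank was 184 in glucose-free replicate 1 and 255 and 355 in normal replicates 1 and 2. At the pooled rate of the other 3 libraries, 31.0 reads were expected in glucose-free replicate 2, where the level of 3 reads is 51.0 CPM. The normal mean of 484 CPM was 9.49 times that level. Such zeros were not particular to circZNF609: of 1049 circRNAs with at least 10 reads expected in that library, 62 (5.91%) were listed at 0. No source used here says what a listed 0 means, and the smallest value above 0 was 2 in each library. With all 4 libraries the interval of the fold ran from 0.0280 to 17.3 (edgeR adjusted p = 0.999). Without glucose-free replicate 2 the log2 fold change was 0.37 (edgeR adjusted p = 0.777). Without glucose-free replicate 1 only the library at 0 remained in that group. circZNF609 was then called lower, at a log2 fold change of -8.88 that rests on the listed 0. Among the fits run, that was the one call of a member. Every circRNA called in that fit was lower in glucose-free replicate 2, so the call was not particular to circZNF609.

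Among circRNAs reported to be low in liver tumours or to restrain growth, circZKSCAN1 (hsa_circ_0001727) was the most abundant and the most even. Its host gene encodes a zinc finger protein. Counts of 525 and 349 reads were found in glucose-free replicates 1 and 2, or 5126 and 5938 CPM, against 720 and 935 in normal replicates 1 and 2, or 5410 and 5630 CPM. Both normal libraries lay between the glucose-free libraries, and the highest library stood at 1.16 times the lowest, the smallest such ratio among the 8 members read in all libraries. It ranked 10 and 8 in the glucose-free libraries and 9 and 7 in the normal libraries. The mean was 5532 ± 574 CPM in glucose-free and 5520 ± 156 CPM in normal cells (SD, n = 2 each). The fitted fold was 0.929 with a 95% interval of 0.724 to 1.19 (edgeR adjusted p = 0.999), the narrowest interval of the 8 members tested.

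circSMARCA5 (hsa_circ_0001445) comes from the gene of an ISWI chromatin-remodelling ATPase. Counts of 181 and 97 reads were found in glucose-free replicates 1 and 2, or 1767 and 1650 CPM, against 164 and 155 in normal replicates 1 and 2, or 1232 and 933 CPM. The glucose-free libraries were close to each other and above both normal libraries. The mean was 1709 ± 82.7 CPM in glucose-free and 1083 ± 211 CPM in normal cells (SD, n = 2 each), a ratio of 1.58 (exact permutation p = 0.333). Its rank was 48.5 and 49.5 in the glucose-free libraries and 82 and 110 in the normal libraries. The fitted log2 fold change was 0.56 with a standard error of 0.22, and the interval of the fold ran from 0.972 to 2.25 (edgeR adjusted p = 0.999). Among the members it had the smallest unadjusted p, and its value was above 0 in each of 22 alternative fits, from 0.35 to 0.76. Because its groups did not overlap, fits to the same libraries could hardly change that sign, so this is no separate support. The counting intervals of glucose-free replicate 2, 1338 to 2013 CPM, and normal replicate 1, 1051 to 1436 CPM, overlapped, and the ratio of these libraries was 1.34. Between glucose-free replicate 1 and normal replicate 2 it was 1.89.

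circMTO1 (hsa_circ_0007874) comes from a gene for a mitochondrial tRNA-modifying enzyme and has been described as holding a microRNA away from its targets in liver cancer cells. Counts of 15 and 6 reads were found in glucose-free replicates 1 and 2, or 146 and 102 CPM, against 7 and 8 in normal replicates 1 and 2, or 52.6 and 48.2 CPM. Its rank was 1373 and 2223.5 in the glucose-free libraries and 3892.5 and 4180 in the normal libraries. The groups did not overlap, but the counting intervals did. They were 82.0 to 242 and 37.5 to 222 CPM in glucose-free replicates 1 and 2, and 21.1 to 108 and 20.8 to 94.9 CPM in normal replicates 1 and 2. Its log2 fold change was 1.21 with a standard error of 0.53, and the interval of the fold ran from 0.830 to 6.48 (edgeR adjusted p = 0.999). Having passed the filter through the group where it was high, it had to show a higher value there.

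circITCH (hsa_circ_0001141), from the gene of a HECT-type ubiquitin ligase, was the lowest of the 9. There were 2 and 5 reads in glucose-free replicates 1 and 2, or 19.5 and 85.1 CPM, against 3 and 4 in normal replicates 1 and 2, or 22.5 and 24.1 CPM. It ranked 6768 and 2710 in the glucose-free libraries and 7477 and 7079.5 in the normal libraries. Its highest and lowest libraries were both glucose-free. Glucose-free replicate 2, where 1 read counts for most CPM, was the shallowest. A difference between the groups was not detectable at this depth. Fits without the filter gave adjusted p-values of 0.947 with edgeR and 0.9999 with DESeq2.

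circFBXW7 (hsa_circ_0001451), from the gene of an F-box protein that selects substrates for a ubiquitin ligase, is known for encoding a short protein described in glioma. There were 181 and 87 reads in glucose-free replicates 1 and 2, or 1767 and 1480 CPM, against 185 and 135 in normal replicates 1 and 2, or 1390 and 813 CPM. It ranked 48.5 and 60 in the glucose-free libraries and 62.5 and 144 in the normal libraries. Normal replicate 2 was low and the other 3 libraries lay closer together. The mean was 1624 ± 203 CPM in glucose-free and 1102 ± 408 CPM in normal cells (SD, n = 2 each), a ratio of 1.47 (exact permutation p = 0.333). The interval of the fitted fold ran from 0.737 to 2.62 (edgeR adjusted p = 0.999). Without normal replicate 2 the log2 fold change was 0.10, against 0.48 with all 4 libraries, and without normal replicate 1 it was 0.82. Glucose-free replicate 2 and normal replicate 1 differed by a ratio of 1.06.

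**Figure D3:**
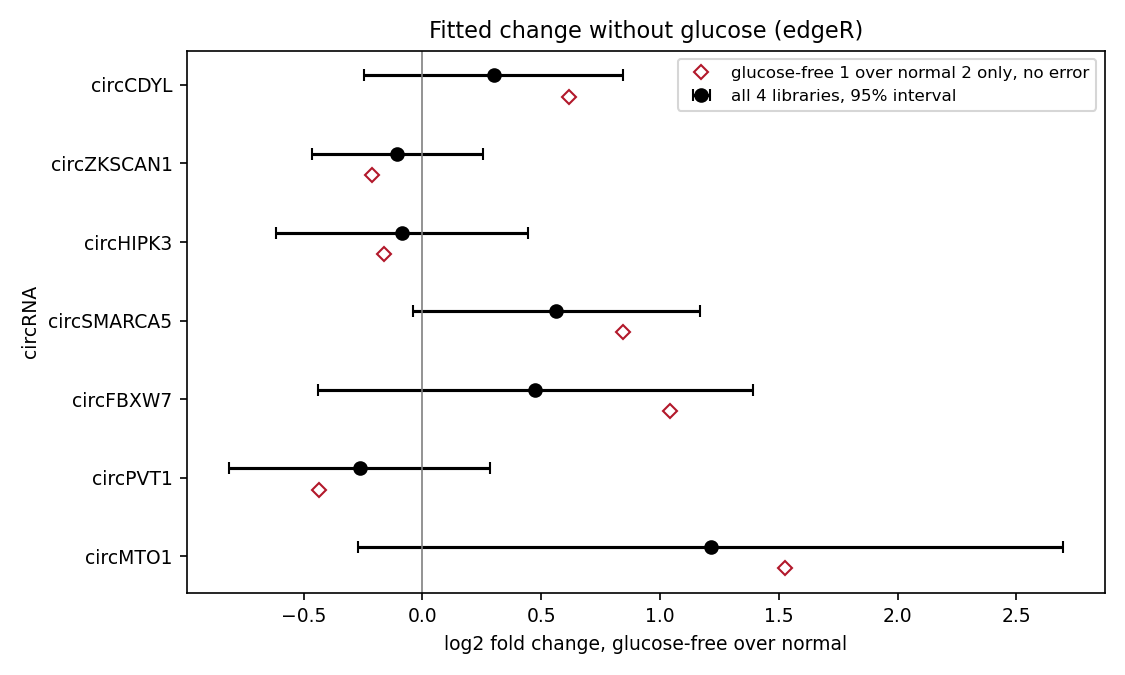
Log2 fold change, glucose-free over normal (horizontal axis), for 7 circRNAs, with 95% intervals from edgeR over all 4 libraries and, as open diamonds, the value of glucose-free replicate 1 over normal replicate 2. Each interval spans 0, and circZNF609 and circITCH are left out because of a listed 0 and of low counts.

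Over the 8 members tested the median log2 fold change was 0.11, with 4 above 0 and 4 below, against -0.03 over all circRNAs tested, of which 48% were above 0 and 52% below. With circMTO1 in it through its high group, this median describes these 8 only. With glucose-free replicate 1 set against normal replicate 2 alone, without the closest libraries, the values were 0.62 for circCDYL, 0.84 for circSMARCA5, 1.04 for circFBXW7, 1.53 for circMTO1, -0.16 for circHIPK3, -0.21 for circZKSCAN1, -0.44 for circPVT1 and 0.58 for circZNF609. These rest on 1 library a group and have no test. The sign was that of the fit to all 4 libraries except for circZNF609, at -0.52 there with its listed 0. These libraries are also the pair farthest apart, at 5.76 in chi-square per degree of freedom, so values farther from 0 describe that pair only.

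**Figure D4:**
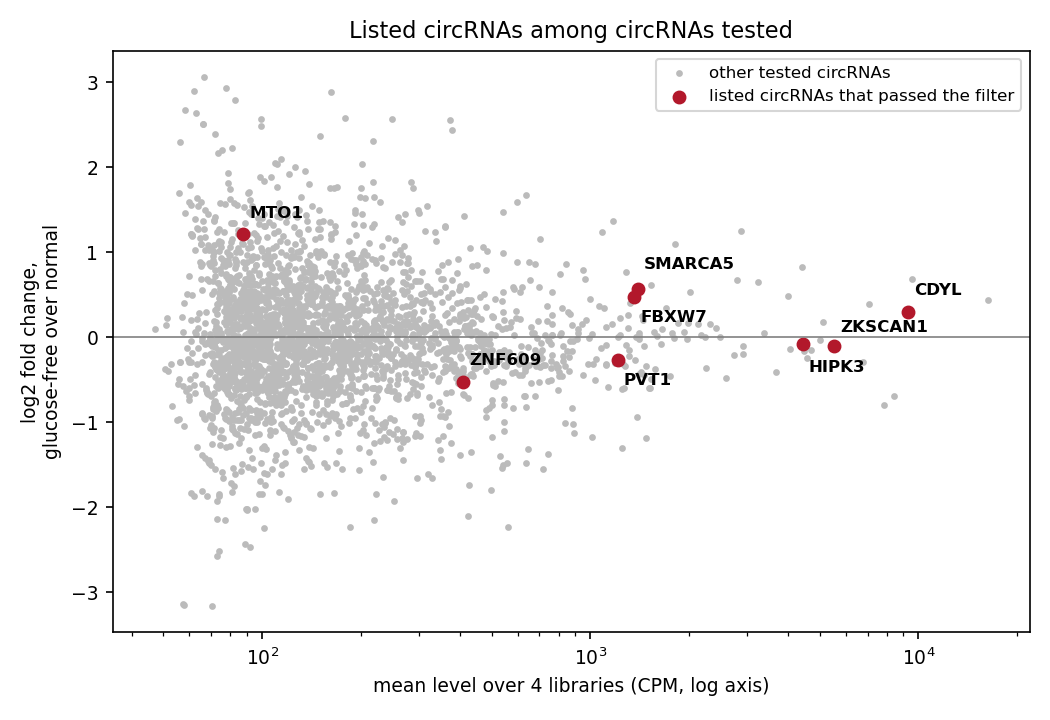
Log2 fold change, glucose-free over normal, against mean level (CPM, log axis) for 2784 tested circRNAs with reads in both groups, after leaving out 19 listed at 0 throughout a group. The 8 named circRNAs lie within the cloud of the other circRNAs.

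By the median, the members' differences between libraries were also smallest for the closest libraries, with circZNF609 left out there for its listed 0. Over the 8 members with reads in both, the median absolute log2 ratio was 0.14 between glucose-free replicate 2 and normal replicate 1. It was 0.24 between the glucose-free libraries and 0.65 between glucose-free replicate 2 and normal replicate 2. Over all 9 members it was 0.28 between the normal libraries, 0.33 between glucose-free replicate 1 and normal replicate 1, and 0.66 between glucose-free replicate 1 and normal replicate 2. By the largest absolute log2 ratio of a member, the normal libraries were closest, at 0.77, against 1.92 between glucose-free replicate 2 and normal replicate 1.

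Ratios of members within a library do not depend on its depth. The ratio of circZKSCAN1 to circHIPK3 was 1.12 and 1.36 in glucose-free replicates 1 and 2, against 1.36 and 1.17 in normal replicates 1 and 2. These groups overlapped. The ratio of circZKSCAN1 to circSMARCA5 was 2.90 and 3.60 in glucose-free replicates 1 and 2, against 4.39 and 6.03 in normal replicates 1 and 2, without overlap. The ratio of circSMARCA5 to circPVT1 was 1.79 and 1.26 in glucose-free replicates 1 and 2, against 0.959 and 0.738 in normal replicates 1 and 2, also without overlap. The ratio of circSMARCA5 to circFBXW7 was 1 and 1.11 in glucose-free replicates 1 and 2, against 0.886 and 1.15 in normal replicates 1 and 2, with overlap. These pairs were picked after their values were seen, and the exact permutation test cannot go below p = 0.333. Of 15 ratios among the 6 members with at least 50 reads in each library, 7 had no overlap. Both ratios shown without overlap hold circSMARCA5, whose own groups did not overlap, so they are no separate support.

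The circRNAs most like the 3 most abundant members were found by the distance between centred log2(CPM + 1) profiles over the 4 libraries, among 1643 candidates. For circCDYL they were hsa_circ_0008155 and hsa_circ_0001851, at distances of 0.077 and 0.090, where the median candidate was at 0.78. For circZKSCAN1 they were hsa_circ_0000467 and novel_circ_0011288, at 0.047 and 0.056. For circHIPK3 they were hsa_circ_0000311 and hsa_circ_0002025, at 0.014 and 0.034. With 4 libraries many profiles are near each other. Among the members, the nearest to circCDYL was circSMARCA5 at 0.29, the nearest to circZKSCAN1 was circPVT1 at 0.22, and the nearest to circHIPK3 was circZKSCAN1 at 0.25.

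A further 17 circBase identifiers with publications in liver cancer were listed from general knowledge, and 7 of them had a row. Of these, 6 were tested, 2 with a log2 fold change above 0 and 4 below, with a median of -0.28, and 0 were called by edgeR. The most abundant, hsa_circ_0000567, was close to circHIPK3 in level, at 4267 and 3709 CPM in glucose-free replicates 1 and 2, against 3892 and 4323 CPM in normal replicates 1 and 2. The groups overlapped (log2 fold change -0.14, standard error 0.19, edgeR adjusted p = 0.999). The next, hsa_circ_0005075, had 225 and 340 CPM in glucose-free replicates 1 and 2, against 286 and 132 CPM in normal replicates 1 and 2, and its groups also overlapped. Of the 7, 1 had both glucose-free libraries above both normal libraries and 2 had both below. Among all circRNAs tested these shares were 23.2% and 12.9%, and counts out of 7 describe this list only. The one above, named after its values were seen, was hsa_circ_0091570, at 166 and 255 CPM in glucose-free replicates 1 and 2, against 165 and 72.3 CPM in normal replicates 1 and 2. Of those below, also named after their values were seen, hsa_circ_0001649 stood at 127 and 85.1 CPM in glucose-free replicates 1 and 2, against 180 and 151 CPM in normal replicates 1 and 2. The other, hsa_circ_0000673, was listed at 0 in glucose-free replicate 1 and had 255 CPM in glucose-free replicate 2, against 353 and 325 CPM in normal replicates 1 and 2. In all, 2 of the 7 were listed at 0 in 1 or more libraries.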

How the data were processed

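CircRNA reads were measured in 4 HepG2 libraries. Raw counts, whole reads per circRNA, were deposited by the authors with no normalization. The CPM columns, headed tpm, were also deposited by the authors, and each equals the count over its column total times 1000000, within 4.22e-06. The submitters' processing notes name hg19 and DESeq2, without a version or role. For the aligner, the circRNA caller and any filter, the method is not given in the sources used here.

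Counts were tested with edgeR 4.0.16 (R 4.3.3; quasi-likelihood test, TMM, filterByExpr, library sizes over the circRNAs kept, group as the only term), adjusted by Benjamini-Hochberg over 2803 circRNAs at a threshold of 0.05. Standard errors were taken as |log2 fold change| / sqrt(F). Intervals of the fold use the t quantile of the test's degrees of freedom. Alternatives were DESeq2 1.42.0, limma 3.58.1 without a mean-variance trend, other scalings, filters and circRNA sets, a replicate block and left-out libraries. For single values, exact permutation tests (2-sided) were used. Poisson and Clopper-Pearson intervals are at 95%.

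All 9 members are named. Similar circRNAs were named by the 2 smallest profile distances for the 3 most abundant members. The members were picked for their place in the literature and not for their values, but earlier results of these data were known when members and lists were set. Junction sequences were read from GENCODE 29 transcripts by exon number, with the exon numbers taken from general knowledge.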

Additional observations from a re-analysis of the deposited data

How the results depend on the processing

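Over all circRNAs, 0 were also called with RLE factors, with scaling by total reads alone, with column totals, without a filter, with at least 10 reads in 2 libraries, with robust dispersion, with DESeq2, with the replicate block and in the set with reads in all 4 libraries. It was 16 and 19 with limma on log2(CPM + 1) and log2(CPM + 0.1), and 17 in that set with the replicate block, which leaves 1 residual degree of freedom. Leaving out 1 library gave 0 to 71 calls, with 71 without glucose-free replicate 2 and 24 without glucose-free replicate 1, and in the set with reads in all 4 libraries 0 to 61, with 61 without glucose-free replicate 2 and 23 without normal replicate 1. Such fits take the spread of the remaining single library from the other group. Called members numbered 0 in each of these settings except 1, circZNF609, without glucose-free replicate 1, so the range with 1 library left out was 0 to 1. The deviations of same-numbered libraries had a correlation of -0.17 across 2803 circRNAs. A crossed pairing, chosen after seeing the data, gave 0 calls, and 0 in the set with reads in all 4 libraries.

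The members' median log2 fold change was -0.021 to 0.38 with 1 library left out, 0.11 with the replicate block, 0.097 to 0.47 with 1 library left out in the set with reads in all 4 libraries (0.46 without glucose-free replicate 2), and 0.60 without normal replicate 1 and glucose-free replicate 2. In single values 7 of 177 changed sign, none called in the changed direction. For circHIPK3 the log2 fold change was 0.027 with limma at either pseudocount, 0.045 without normal replicate 2, and in the set with reads in all 4 libraries 0.10 without normal replicate 2 and 0.0031 without glucose-free replicate 2, and its lowest value was -0.30, without normal replicate 1. For circZNF609 it was 0.37 without glucose-free replicate 2, 0.58 without normal replicate 1 and glucose-free replicate 2, and -8.88 without glucose-free replicate 1, a value that depends on the prior count because the remaining library is at 0. The cause was not tested. The difference in summed share was above 0 in each of 6 alternatives, from 0.105 to 0.456 percentage points, with 0.257 to 0.456 when 1 library was left out. As the shares of the groups did not overlap, leaving out 1 library could not change the sign. Depth limits circMTO1, with 36 reads in all, and circITCH, with 14.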
